A study of Mus musculus with 6 samples.

Results

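The cadherin superfamily and the catenins were described in the RNA of sorted mouse brain endothelial cells, set against that of the whole brain cell suspension. Members were all genes of the deposited table with a Cdh, Pcdh, Dchs, Fat, Celsr, Ctnna, Ctnnb1, Ctnnd or Jup symbol. The symbols chose them, and the only measured value within that rule was the count minimum that the deposited table applies. The rule itself was chosen with earlier results of these data known. The members numbered 63 of the 10989 genes in the table: 28 clustered protocadherins and 35 other members. The RefSeq annotation holds 109 mouse genes with such symbols. The other 46 are not analysed here, among them 13 of 14 protocadherin alpha genes, 14 of 22 beta genes and 12 of 23 Cdh genes.

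Positive was a group of 3 libraries from sorted EGFP+, CD31+ and CD11b- cells, which the labels' protocol calls endothelial cells. Input was a group of 3 libraries from the suspension before sorting. All mice carried Tie2-cre and NuTRAP, a reporter that Cre switches on and that tags ribosomes with EGFP, and all 6 titles carry WT. Cre is driven by the promoter of Tek, the gene of Tie2, which is active in endothelial cells and also in some cells of blood origin. The libraries are numbered 1222, 1223 and 1227 in each fraction and were made from brain total RNA with a directional kit. The series text calls the replicates biological, but no label ties a number to an animal, and the labels used here give neither age nor sex. The p-values measure only the spread between these libraries, which may be technical in part.

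Classical cadherins are transmembrane proteins that bind the same cadherin on a neighbouring cell through calcium-dependent extracellular repeats. Inside the cell, p120-type catenins hold the cadherin at the membrane, beta-catenin or plakoglobin binds its tail, and alpha-catenin links the complex to actin. In endothelium this junction is built on VE-cadherin and seals the vessel wall. Protocadherins lack the catenin-binding tail, and the clustered ones are known for giving neurons a surface identity. Fat, Dachsous and Celsr proteins are giant cadherins of planar cell polarity.

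Summed estimated counts ran from 4772866 to 23525401 in Positive and from 4814966 to 52283556 in Input, with the 1223 library lowest in both fractions. Levels below are in CPM, a count divided by the library size after TMM adjustment. The gate genes check the sort: Pecam1, the gene of CD31, averaged 2037 ± 55.2 CPM in Positive and 282 ± 16.8 CPM in Input, and Itgam, the gene of CD11b, averaged 65.2 ± 19.7 CPM in Positive and 445.9 ± 151 CPM in Input (SD, n = 3 each). Markers of other brain cells moved with the fraction. Those of neurons (5 of 6 listed genes) summed to 42.1 to 63.8 CPM in Positive and 413 to 523 CPM in Input, those of oligodendrocytes (6 genes) to 587 to 1279 CPM in Positive and 17680 to 25340 CPM in Input, and those of astrocytes (6 genes) to 519 to 812 CPM in Positive and 5129 to 8053 CPM in Input. All of these 17 genes fell, and 6 of 6 endothelial markers rose, summing to 13290 to 14560 CPM in Positive and 1712 to 2366 CPM in Input. These 6 include the gate gene Pecam1 and Tek, whose promoter drives Cre, and neither is a check independent of the sort. Mural markers summed to 1235 to 1926 CPM in Positive and 673 to 888 CPM in Input, with 6 of 7 higher. Perivascular macrophage markers (4 of 4 higher) were uneven, at 1855 CPM in Positive 1222, 663 CPM in Positive 1223 and 261 CPM in Positive 1227, against 211 to 280 CPM in Input. None of the marker genes in the table was at 0 in any library. Their part in the values below was not tested.

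Of the 63 members, 15 rose and 32 fell in Positive relative to Input, and 16 did not pass (edgeR's quasi-likelihood test, Benjamini-Hochberg adjusted p below 0.05 over all genes). Among all genes tested 26.1% were higher and 29.4% lower. The median log2 fold change was -0.78 over the members and 0.03 over all genes. The table lists genes with at least 50 estimated counts in every library of at least 1 fraction, and this bears on the directions: 24 members met it through Input only, and of these 19 fell and 0 rose. Over all 1897 genes kept through Input only, 1531 fell and 0 rose. Of the 36 members that met it in both fractions, 14 rose and 13 fell, beside 30.4% and 19.9% of all 8509 such genes. In bulk RNA, fewer cells of a type and less RNA per cell cannot be told apart. Separation of the fractions is described below for single genes. The share of all genes without overlap was not counted, so such separation does not mark a member out.

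The sorted cells held 1 dominant classical cadherin. Cdh5, which encodes VE-cadherin (chromosome 8, 104101625 to 104144502, mm10), was at 1427, 1539 and 1368 CPM in Positive, against 176.4, 249.5 and 179.5 CPM in Input, each fraction in the order 1222, 1223 and 1227 that is kept throughout. Every Positive library was far above every Input library. The log2 fold change was 2.84 ± 0.18 (SE; edgeR adjusted p = 4.85e-06), or 7.17-fold. Per kilobase of exon, Cdh5 made up 93.5%, 90.5% and 92.7% of the summed level of the 11 Cdh genes in Positive, against 36.6%, 45.9% and 36.7% in Input.

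The other 5 type II cadherins all fell, beside 29.4% of all genes tested. Cdh20 was at 5.83, 5.32 and 4.29 CPM in Positive, against 83.5, 74.3 and 82.4 CPM in Input (log2 -3.94 ± 0.18, edgeR adjusted p = 2.70e-06). Cdh10 was at 3.12, 3.55 and 1.69 CPM in Positive, against 49.6, 34.8 and 54.2 CPM in Input (log2 -4.09 ± 0.32). Cdh11, known from mesenchymal cells, was at 12.8, 17.1 and 12.02 CPM in Positive, against 76.4, 54.1 and 61.9 CPM in Input (log2 -2.23 ± 0.20). No Positive library reached an Input library for any of these genes. Cdh19 was at 1.85, 0.887 and 1.11 CPM in Positive, against 22.8, 25.6 and 20.9 CPM in Input (log2 -3.98 ± 0.32). Cdh22 was at 1.40, 2.66 and 1.80 CPM in Positive, against 16.5, 14.6 and 25.7 CPM in Input (log2 -3.33 ± 0.36). Cdh10, Cdh19, Cdh20 and Cdh22 met the count minimum through Input only, and Cdh11 met it in both fractions. Fibroblast markers (4 of 4 lower) summed to 60.3 to 71.8 CPM in Positive and 170 to 240 CPM in Input, and their part in the Cdh11 values was not tested. Cdh11 and Cdh5 are next to each other among the table's genes on chromosome 8, with 1316.5 kb between them, and moved in opposite directions.

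Among classical type I cadherins, 3 of 4 fell, beside 29.4% of all genes tested. Cdh2, N-cadherin, which endothelial cells use beside VE-cadherin, was at 62.4, 96.0 and 66.2 CPM in Positive, against 134.5, 136.4 and 148.7 CPM in Input. Its fall was the smallest of the 8 called Cdh genes that fell, with a log2 fold change of -0.91 ± 0.18 (edgeR adjusted p = 0.00254). Cdh1, the epithelial E-cadherin, was at 1.54, 1.77 and 0.741 CPM in Positive, against 21.1, 15.0 and 13.9 CPM in Input (log2 -3.63 ± 0.40). Cdh4, R-cadherin, was at 3.799, 4.88 and 4.61 CPM in Positive, against 19.5, 25.6 and 19.03 CPM in Input (log2 -2.26 ± 0.25). None of these 3 genes overlapped between fractions, and Cdh1 and Cdh4 met the count minimum through Input only.

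Cdh3, P-cadherin, was the only Cdh gene that did not pass. It was at 3.57, 37.5 and 8.63 CPM in Positive, against 11.2, 14.8 and 9.36 CPM in Input (log2 0.43 ± 0.72, edgeR adjusted p = 0.64). Positive 1223 stood above all other libraries and the remaining Positive libraries lay below all Input libraries. Without Positive 1223 the log2 fold change was -0.92. Choroid plexus markers (3 genes) summed to 456.7, 912.4 and 344.9 CPM in Positive and 3361, 6134 and 2691 CPM in Input, in the order 1222, 1223 and 1227, and so were also highest in 1223 within each fraction. Their part in the Cdh3 level was not tested.

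Cdh13 went the way of Cdh5. It encodes T-cadherin, which is anchored by a lipid, has no catenin-binding tail and binds adiponectin. Its level was 116.5, 141.7 and 125.9 CPM in Positive, against 22.6, 53.7 and 30.7 CPM in Input. The groups did not overlap, and the log2 fold change was 1.87 ± 0.29 (edgeR adjusted p = 0.000667). Per kilobase of exon it stood at 11.4 CPM in Positive, beside 343.7 CPM for Cdh5 and 9.28 CPM for Cdh2.

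The catenins split into 4 (66.7%) that rose and 2 (33.3%) that fell, beside 26.1% and 29.4% of all genes tested. Ctnnb1, beta-catenin, which also carries the Wnt signal to the nucleus, was at 2504, 2932 and 2591 CPM in Positive, against 755.3, 827.3 and 816.2 CPM in Input (log2 1.74 ± 0.14, edgeR adjusted p = 1.34e-05). Ctnna1, alpha-catenin, was at 773.3, 727.7 and 727 CPM in Positive, against 321.2, 333.6 and 311.8 CPM in Input (log2 1.20 ± 0.12). Both genes were well separated between fractions. Ctnnd1, p120-catenin, was at 509.6, 497.6 and 460.4 CPM in Positive, against 211.1, 170.0 and 215.4 CPM in Input (log2 1.30 ± 0.14). Jup, plakoglobin, was at 426.4, 394 and 454.7 CPM in Positive, against 177.3, 180.8 and 196.5 CPM in Input (log2 1.20 ± 0.12). All 4 fold changes were smaller than that of Cdh5.

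The catenins that fell are the ones best known from neurons. Ctnna2, alpha-N-catenin, was at 2.94, 1.996 and 4.71 CPM in Positive, against 56.0, 64.7 and 56.0 CPM in Input (log2 -4.07 ± 0.27, edgeR adjusted p = 6.72e-06). Ctnnd2, delta-catenin, was at 11.03, 12.4 and 7.78 CPM in Positive, against 94.8, 62.7 and 113 CPM in Input (log2 -3.14 ± 0.27). Ctnna2 met the count minimum through Input only. The paralogs therefore stood in different proportions in the fractions. Per kilobase of exon, Ctnna1 made up 99.7%, 99.8% and 99.4% of Ctnna1 and Ctnna2 in Positive, against 86.1%, 84.8% and 85.8% in Input. Ctnnd1 made up 98.5%, 98.3% and 98.8% of Ctnnd1 and Ctnnd2 in Positive, against 75.8%, 79.3% and 72.9% in Input. The proportion of Jup to Ctnnb1 moved less: Jup was 12.1%, 9.78% and 12.4% of their sum in Positive, against 15.9%, 15.0% and 16.3% in Input, lower in every Positive library.

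**Figure D1:**
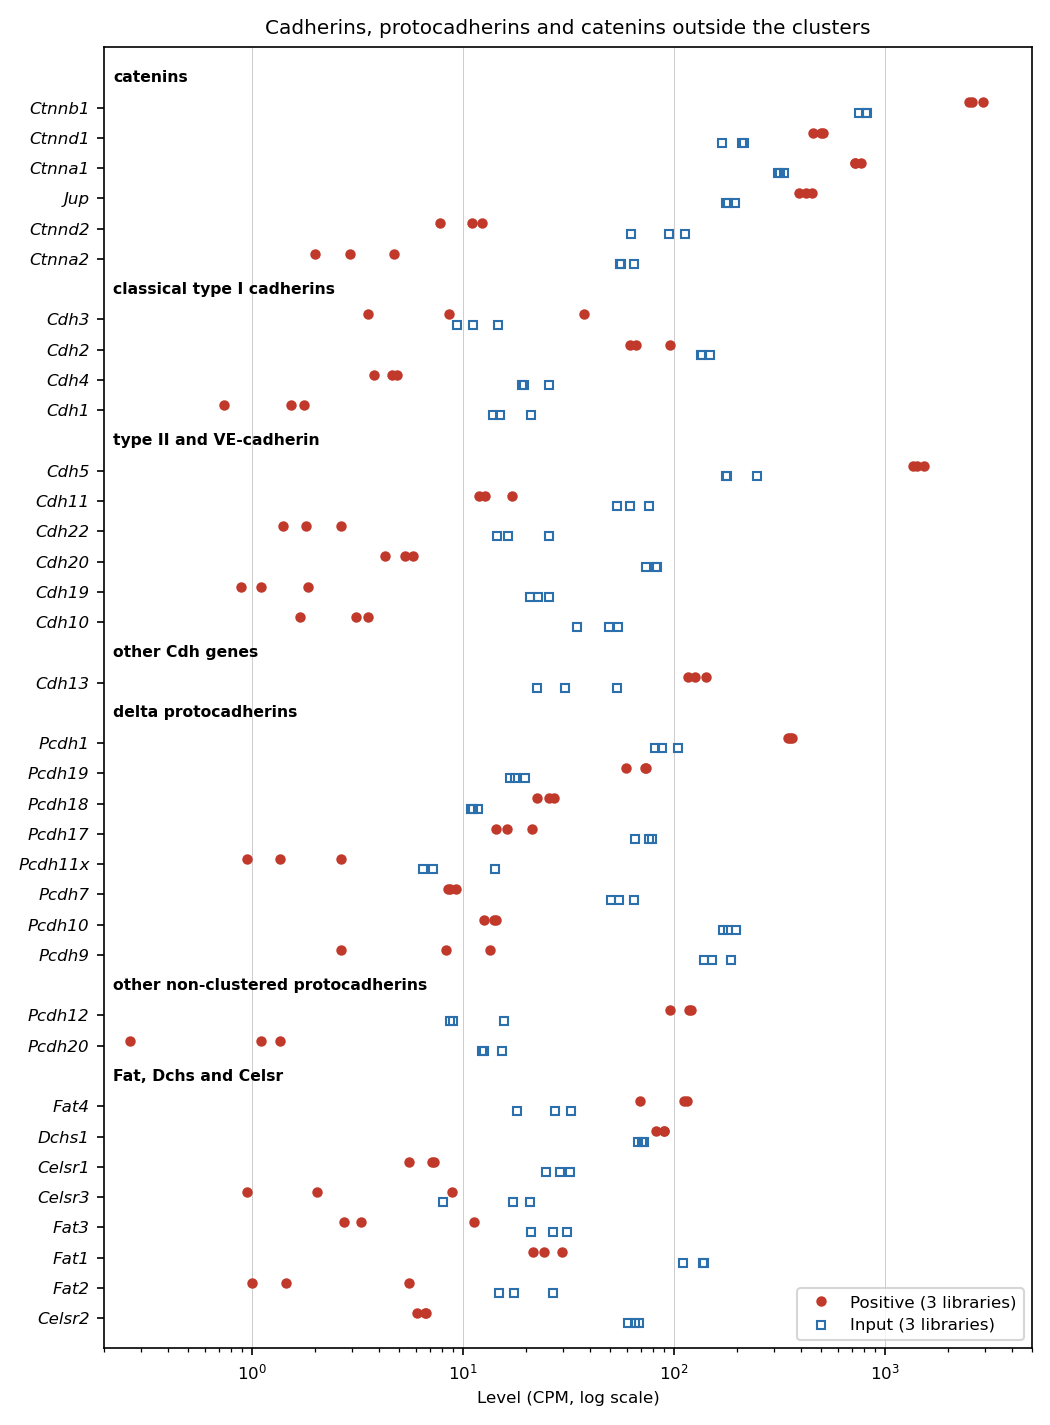
Level of each of the 35 members outside the protocadherin clusters in every library, in CPM on a log axis, with 3 Positive libraries (filled circles) above 3 Input libraries (open squares) for each gene, grouped by role. Ctnnb1 and Cdh5 stand at the high end in Positive, Pcdh12 and Pcdh1 are well separated upward, and Cdh3 is spread from 3.57 to 37.5 CPM in Positive.

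Members that move apart within a family can be set beside the sequence before their start sites. Of the 63 members, 21 have an entry in the RefSeq promoter table (GRCm38.p6), and the windows shown are the 250 bases before the start of a catenin that rose, a catenin that fell, a delta protocadherin that rose and a delta protocadherin that fell. Capitals mark the GC box GGGCGG or its complement CCGCCC, the motif read by Sp1-type factors. The Jup window is chr11:100397791-100398040 on the minus strand, and the Ctnnd2 window is chr15:30172284-30172533 on the plus strand. The Pcdh19 window is chrX:133688994-133689243 on the minus strand, and the Pcdh17 window is chr14:84443313-84443562 on the plus strand. Each is read 5′ to 3′.
Jup: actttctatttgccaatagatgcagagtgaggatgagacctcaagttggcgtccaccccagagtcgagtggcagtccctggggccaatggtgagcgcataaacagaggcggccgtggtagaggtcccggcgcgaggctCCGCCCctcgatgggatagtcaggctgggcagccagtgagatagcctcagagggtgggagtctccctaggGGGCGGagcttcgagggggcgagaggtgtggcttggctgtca
Ctnnd2: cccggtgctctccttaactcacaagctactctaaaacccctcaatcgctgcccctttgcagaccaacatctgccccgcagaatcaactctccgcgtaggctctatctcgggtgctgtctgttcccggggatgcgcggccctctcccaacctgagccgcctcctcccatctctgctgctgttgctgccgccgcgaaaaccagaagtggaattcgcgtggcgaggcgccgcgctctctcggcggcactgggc
Pcdh19: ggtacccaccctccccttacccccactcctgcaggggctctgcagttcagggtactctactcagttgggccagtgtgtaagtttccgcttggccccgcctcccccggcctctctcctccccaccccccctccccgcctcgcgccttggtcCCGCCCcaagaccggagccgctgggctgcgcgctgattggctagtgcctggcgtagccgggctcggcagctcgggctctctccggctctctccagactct
Pcdh17: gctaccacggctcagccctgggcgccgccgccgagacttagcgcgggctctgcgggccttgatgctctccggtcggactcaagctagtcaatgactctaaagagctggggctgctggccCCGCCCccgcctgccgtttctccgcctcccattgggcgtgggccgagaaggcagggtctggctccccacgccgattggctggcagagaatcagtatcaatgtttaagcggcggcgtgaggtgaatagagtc

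A GC box on either strand occurred 2 times in the Jup window, 1 time each in those of Pcdh19 and Pcdh17, and 0 times in that of Ctnnd2, whereas 32.7% of all 32851 windows of 250 bases held at least 1. The letters GGAA, the core read by ETS factors, occurred on either strand 2 times for Ctnnd2, 1 time for Pcdh19 and 0 times for Jup and Pcdh17, and 93.4% of all windows held them. All 4 windows were rich in G and C, at 62.0% for Jup, 62.8% for Ctnnd2, 69.2% for Pcdh19 and 64.8% for Pcdh17, beside a median of 52.4% over all windows. Neither motif separated the genes that rose from those that fell in these 4 windows. The 4 genes were picked by their calls, so they cannot show whether a motif goes with the direction of change. A match is a match of letters only.

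The protocadherins outside the clusters divided into 4 that rose and 6 that fell. Of all genes tested 26.1% rose and 29.4% fell. Pcdh12, once named VE-cadherin-2 and known from endothelium, was at 118.9, 120.8 and 95.7 CPM in Positive, against 8.74, 15.8 and 8.99 CPM in Input. Its fold change was the highest of the 63 members, at log2 3.38 ± 0.25 (edgeR adjusted p = 1.03e-05), or 10.4-fold. Pcdh1, which rose as well, was at 356, 365.6 and 350.5 CPM in Positive, against 82.0, 104.7 and 88.1 CPM in Input (log2 1.97 ± 0.13). Pcdh19, an X-linked gene known for a female-biased epilepsy in people, was at 73.1, 73.8 and 59.5 CPM in Positive, against 19.7, 16.8 and 17.7 CPM in Input (log2 1.92 ± 0.16). Pcdh18 was at 27.2, 22.6 and 25.6 CPM in Positive, against 11.8, 10.99 and 11.3 CPM in Input (log2 1.14 ± 0.18). All Positive libraries exceeded all Input libraries for these 4 genes.

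The 6 that fell include protocadherins known from axon growth and synapses. Pcdh10 was at 14.1, 12.6 and 14.5 CPM in Positive, against 172.2, 197.4 and 181.6 CPM in Input (log2 -3.72 ± 0.14, edgeR adjusted p = 2.70e-06). Pcdh9 was at 8.37, 2.66 and 13.5 CPM in Positive, against 152.3, 186.6 and 138.7 CPM in Input (log2 -4.15 ± 0.42), the lowest fold change of the 63 members. Pcdh17 was at 16.2, 21.3 and 14.4 CPM in Positive, against 79.2, 76.5 and 65.4 CPM in Input (log2 -2.11 ± 0.18). For these genes no Positive library reached an Input library. Pcdh20 was at 1.36, 1.11 and 0.265 CPM in Positive, against 12.4, 15.4 and 12.6 CPM in Input (log2 -3.80 ± 0.53). Pcdh7 and Pcdh11x fell too, with log2 fold changes of -2.69 and -2.54. These 3 genes, like Pcdh9, met the count minimum through Input only.

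The order of levels among the 10 non-clustered protocadherins therefore differed between fractions. Per kilobase of exon, Pcdh1 made up 52.8%, 54.1% and 56.1% of their sum in Positive, against 14.8%, 16.4% and 16.7% in Input. Pcdh12 made up 25.6%, 26.0% and 22.3% in Positive, against 2.28%, 3.59% and 2.47% in Input. Pcdh9, which took the largest share in Input at 35.6%, 37.9% and 34.0%, was at 1.61%, 0.51% and 2.80% in Positive. Pcdh10 and Pcdh18 are neighbours among the table's genes on chromosome 3, with 4308.7 kb between them, and moved in opposite directions. Pcdh1 and Pcdh12, which lie 57.3 kb apart with 1 table gene between them, both rose.

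**Figure D2:**
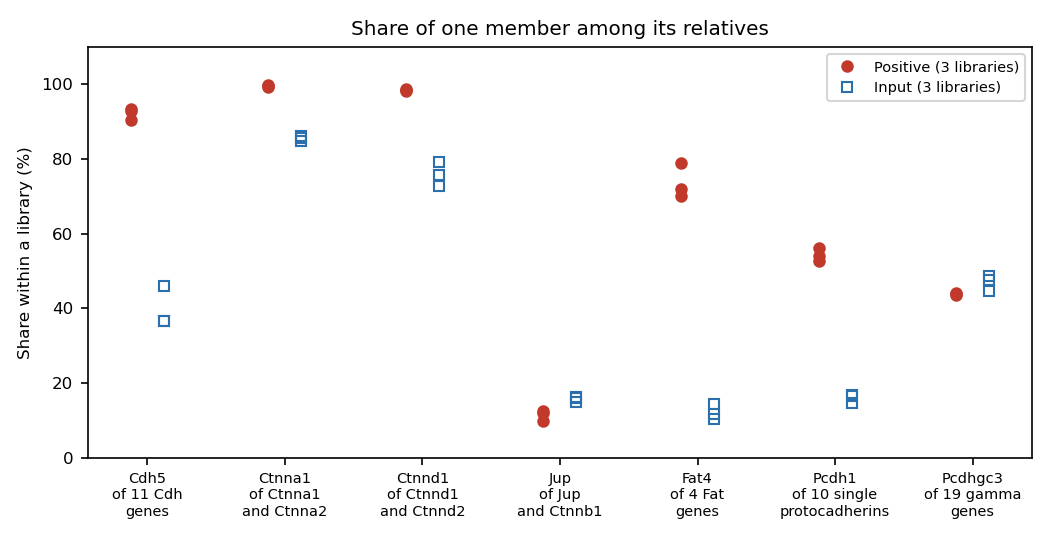
Share of 1 member in the summed level of its relatives within each library, in percent, for 3 Positive libraries (filled circles) and 3 Input libraries (open squares); levels are CPM per kilobase of exon, except for the gamma cluster, where they are CPM. Cdh5, Fat4 and Pcdh1 take much larger shares in Positive, whereas Pcdhgc3 lies near 44% in Positive and between 44.6% and 48.7% in Input.

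Of the 8 giant cadherins, 2 (25.0%) rose and 6 (75.0%) fell, beside 26.1% and 29.4% of all genes tested. The share that rose was thus near that of all genes. Fat4 was at 115.7, 112.4 and 69.6 CPM in Positive, against 27.5, 32.6 and 18.1 CPM in Input. The groups did not overlap, and the log2 fold change was 1.95 ± 0.27 (edgeR adjusted p = 0.000347). Dchs1, the ligand that Fat4 binds on the neighbouring cell, was at 90.3, 82.9 and 90.3 CPM in Positive, against 72.2, 67.7 and 70.9 CPM in Input. Its log2 fold change was only 0.32 ± 0.12 (edgeR adjusted p = 0.0467), and the call was lost whichever single library was left out, at values from 0.30 to 0.36. It was lost as well with scaling to library size alone (0.17). The receptor and its ligand thus changed by different amounts in the same libraries; the difference between them was not tested.

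The other Fat genes fell. Fat1 was at 24.4, 29.7 and 21.6 CPM in Positive, against 139.2, 138.4 and 111.2 CPM in Input (log2 -2.37 ± 0.17, edgeR adjusted p = 9.30e-06). Fat2 was at 1.45, 5.54 and 1.01 CPM in Positive, against 26.7, 17.6 and 14.9 CPM in Input (log2 -3.13 ± 0.60). Fat3 was at 3.30, 11.3 and 2.75 CPM in Positive, against 31.2, 26.8 and 21.2 CPM in Input (log2 -2.34 ± 0.50). In Fat2 and Fat3 the Positive 1223 library was above the other Positive libraries, yet below every Input library. Within the family the leading gene changed: Fat4 held 78.8%, 70.0% and 72.0% of the per-kilobase level of the 4 Fat genes in Positive, against 11.6%, 14.4% and 10.4% in Input. Fat1 held 18.2%, 20.3% and 24.5% in Positive, against 64.5%, 67.0% and 69.9% in Input.

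The Celsr genes, vertebrate forms of Drosophila flamingo, fell as well, and all 3 met the count minimum through Input only, as did Fat2. Celsr2, which acts in the polarity of ependymal cilia, was at 6.06, 6.65 and 6.67 CPM in Positive, against 66.0, 61.1 and 68.8 CPM in Input (log2 -3.33 ± 0.16, edgeR adjusted p = 2.70e-06). Ependymal markers (3 of 3 lower) summed to 6.09 to 9.81 CPM in Positive and 156 to 185 CPM in Input, and their part in this was not tested. Celsr1 was at 7.19, 5.54 and 7.31 CPM in Positive, against 29.0, 32.4 and 24.9 CPM in Input (log2 -2.06 ± 0.22). Celsr3, known from axon guidance, was at 2.04, 8.87 and 0.953 CPM in Positive, against 17.4, 20.8 and 8.08 CPM in Input. Positive 1223 was above Input 1227, so the groups overlapped, and the log2 fold change was -2.15 ± 0.75 (edgeR adjusted p = 0.0381). The Celsr3 call was lost without Input 1222 (-1.99), Input 1223 (-1.89), Positive 1222 (-1.85) or Positive 1227 (-1.62). Without Positive 1223 it was -3.26.

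The clustered protocadherins had log2 fold changes from -3.42 to 1.27. Each cluster on chromosome 18 has a row of variable exons, each with its own promoter. The alpha genes share 3′ constant exons among themselves, and so do the gamma genes. Of the 28 clustered members, 3 (10.7%) rose, 10 (35.7%) fell and 15 (53.6%) did not pass, with a median log2 fold change of -0.33. Of the 35 other members, 12 (34.3%) rose, 22 (62.9%) fell and 1 did not pass. Among all genes tested 26.1% were higher, 29.4% were lower and 44.5% did not pass. No gene of the table kept through Input only rose, so the count minimum bears on the falls in both sets. The difference between these sets was not tested. The summed level of the 28 genes was 700.5, 746.8 and 807.1 CPM in Positive, against 962.2, 1170 and 1236 CPM in Input, lower in every Positive library. In the gamma genes 27.8% to 66.8% of exonic bases are shared with other members. Sharing was counted among members only, so Pcdhac2, the 1 alpha gene listed, could show none. How reads of shared bases were divided is not given in the sources used here. Values of single gamma genes and of Pcdhac2 are therefore uncertain.

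Of the 8 beta genes listed, 2 rose and 0 fell, with a median log2 fold change of 0.37, and of the 19 gamma genes 1 rose and 9 fell, with a median of -0.66. The difference between these clusters was not tested. Pcdhb17 was at 25.6, 29.1 and 24.8 CPM in Positive, against 9.39, 10.99 and 12.4 CPM in Input (log2 1.27 ± 0.20, edgeR adjusted p = 0.000701). Pcdhb20 was at 15.7, 13.3 and 20.8 CPM in Positive, against 4.94, 9.59 and 6.89 CPM in Input (log2 1.26 ± 0.31, edgeR adjusted p = 0.00885). Neither gene overlapped between fractions, and Pcdhb20 met the count minimum through Positive only. Its call was lost without both 1222 libraries (1.08) and without both 1227 libraries (1.03). With the replicate number as a block, Pcdhb16 (log2 0.92, edgeR adjusted p = 0.0250) and Pcdhb22 (log2 0.70, edgeR adjusted p = 0.0431) also passed, and Pcdhb16 passed without Input 1223 as well (1.19). Pcdhb14 was at 11.8, 7.76 and 13.2 CPM in Positive, against 10.9, 18.0 and 14.7 CPM in Input, and did not pass. Pcdhb18 was at 8.28, 8.65 and 9.32 CPM in Positive, against 7.10, 16.6 and 9.34 CPM in Input, and did not pass either, with overlapping groups. The summed beta level was 90.5, 99.8 and 100.8 CPM in Positive, against 51.8, 94.5 and 61.5 CPM in Input, so that Input 1223 was above Positive 1222 and the groups overlapped. Pcdhac2, the 1 alpha gene in the table, which met the count minimum through Input only, was at 1.45, 0.665 and 1.85 CPM in Positive, against 3.25, 10.2 and 3.15 CPM in Input (log2 -1.80 ± 0.64, edgeR adjusted p = 0.0390). It did not pass with the block (log2 -1.51, edgeR adjusted p = 0.0621), nor without Input 1223 (-1.12) or without any 1 of the Positive libraries (-1.58 to -2.07).

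All 3 C-type gamma genes fell, beside 29.4% of all genes tested. Pcdhgc3, the most abundant clustered protocadherin in both fractions, was at 268.6, 282.7 and 306.2 CPM in Positive, against 441.8, 474.9 and 557 CPM in Input (log2 -0.78 ± 0.14, edgeR adjusted p = 0.00131). Pcdhgc5 was at 3.71, 3.10 and 4.77 CPM in Positive, against 37.3, 41.6 and 51.0 CPM in Input (log2 -3.42 ± 0.23). Pcdhgc4, needed for the survival of neurons in mice, was at 2.49, 1.55 and 2.97 CPM in Positive, against 13.4, 17.2 and 16.5 CPM in Input (log2 -2.63 ± 0.32). None of the 3 overlapped between fractions, and Pcdhgc4 and Pcdhgc5 met the count minimum through Input only. Pcdhgc3 held 44.1%, 43.7% and 43.5% of the summed CPM of the 19 gamma genes in Positive, against 48.7%, 44.6% and 47.6% in Input.

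The A and B types were mixed. Of 10 A-type genes 1 (10.0%) rose and 3 (30.0%) fell, and of 6 B-type genes 0 rose and 3 (50.0%) fell. Of all genes tested 26.1% rose and 29.4% fell, so the A-type share that fell was near that of all genes. Pcdhga10, the 1 gamma gene that rose, was at 54.6, 36.8 and 50.1 CPM in Positive, against 25.3, 35.8 and 31.0 CPM in Input (log2 0.64 ± 0.20, edgeR adjusted p = 0.0243). Positive 1223 and Input 1223 were close, and the call was lost without Input 1222 (0.51), Input 1227 (0.65), Positive 1222 (0.52) or Positive 1227 (0.59), and with scaling to library size alone (0.48). Pcdhgb6 was at 26.0, 27.5 and 30.6 CPM in Positive, against 51.1, 74.1 and 62.3 CPM in Input (log2 -1.15 ± 0.17). Pcdhga12 was at 38.8, 42.6 and 40.7 CPM in Positive, against 35.7, 37.6 and 36.0 CPM in Input, and did not pass. Pcdhga11 and Pcdhga7 fell by 1.62 and 1.54 on the log2 scale. The calls of Pcdhga6, Pcdhgb1 and Pcdhgb7, with log2 fold changes of -0.87, -0.83 and -0.47, were each lost without several libraries in turn. For Pcdhga6 these were Input 1223 (-0.62), Input 1227 (-0.94), Positive 1222 (-0.81) and Positive 1223 (-0.71). For Pcdhgb1 they were Input 1223 (-0.76), Input 1227 (-0.84) and Positive 1222 (-0.63). For Pcdhgb7 they were Input 1223 (-0.42), Input 1227 (-0.40) and each of the Positive libraries (-0.48 to -0.45). Among genes that did not pass, Pcdhga8 passed without Positive 1223 (-1.55) and Pcdhga5 without Positive 1222 (-0.97).

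**Figure D3:**
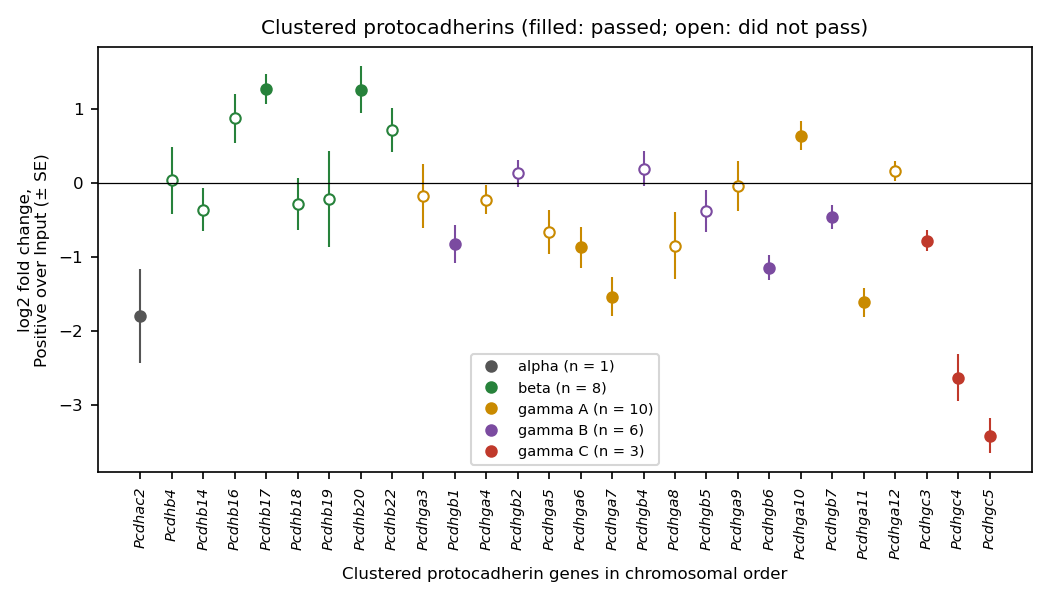
Log2 fold change of Positive over Input with its SE for the 28 clustered protocadherins in chromosomal order, coloured by cluster and gamma type, filled where the gene passed the test and open where it did not. Pcdhb17 and Pcdhb20 lie above 0, and the C-type genes Pcdhgc4 and Pcdhgc5 lie lowest, at -2.63 and -3.42.

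Compared per kilobase of exon, the members formed a clear order in the sorted cells. In Positive, Ctnnb1 was highest at 515.4 CPM per kb, followed by Cdh5 at 343.7, Ctnna1 at 115.6, Ctnnd1 at 66.8 and Jup at 66.0 CPM per kb. Ctnnd1 and Jup did not differ beyond the spread of their libraries. In Input the order was Ctnnb1 at 154, Pcdhgc3 at 89.3, Ctnna1 at 50.2 and Cdh5 at 48.0 CPM per kb. The last 2 lay within the spread of Cdh5 in Input. For Pcdhgc3 38.5% of exonic bases are shared with other members, so its place in the order is uncertain.

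**Figure D4:**
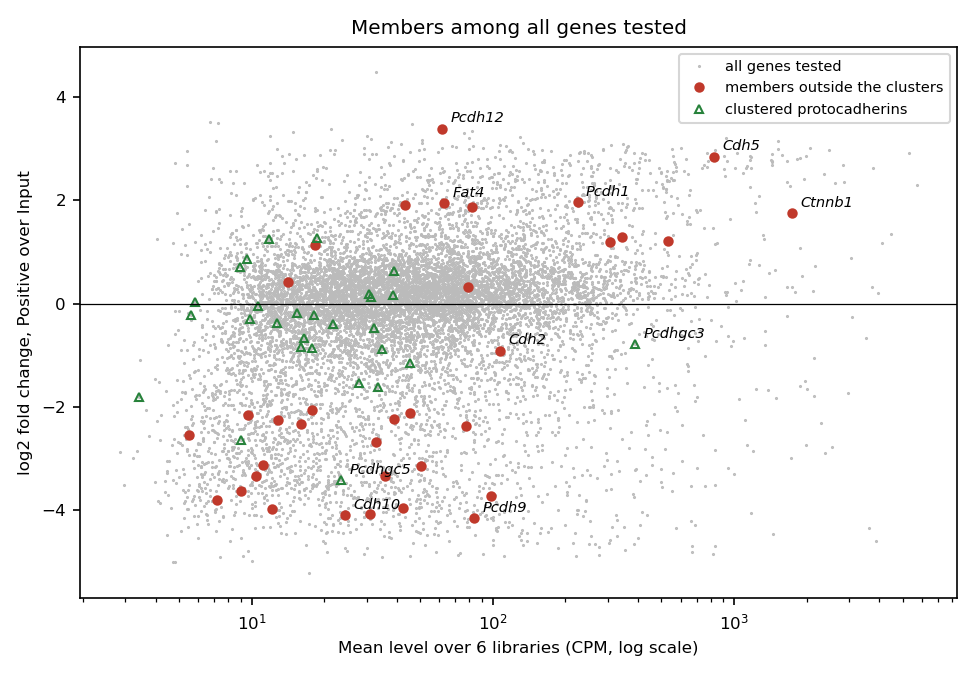
Log2 fold change of Positive over Input against the mean level over 6 libraries (CPM, log axis) for all 10989 genes (grey), with the members outside the clusters as filled circles and the clustered protocadherins as open triangles. Members outside the clusters spread from -4.15 to 3.38, and the clustered ones from -3.42 to 1.27.

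Genes that work with the members were taken from lists of junction scaffolds, nectins, proteases and phosphatases, polarity and Hippo components, cadherin-like genes and regulators of the clusters. Of 99 listed genes 83 were in the table, and 38 rose, 18 fell and 27 did not pass, with a median log2 fold change of 0.36. Over all genes tested 26.1% were higher and 29.4% lower. Of the 65 that met the count minimum in both fractions, 36 rose and 4 fell, beside 30.4% and 19.9% of all such genes. The lists were chosen with earlier results of these data known, so these counts cannot show a trend apart from that choice. The 16 that met it through Input only include 14 of the 18 that fell, and no gene of the table kept in that way rose. Among enzymes acting on cadherins 7 of 15 rose and 2 fell. Ptprb, the phosphatase VE-PTP that binds VE-cadherin, was at 2957, 2148 and 2314 CPM in Positive, against 397.7, 378.4 and 308.1 CPM in Input (log2 2.77 ± 0.18, edgeR adjusted p = 6.31e-06). Ptprm averaged 459.2 ± 6.33 CPM in Positive and 102.8 ± 3.50 CPM in Input (SD, n = 3 each). Adam10, a protease that sheds cadherin ectodomains, averaged 562.1 ± 32.8 CPM in Positive and 256.6 ± 8.87 CPM in Input. Both passed. The receptor phosphatase gene Ptprf and the kinase gene Src fell, with log2 fold changes of -3.56 and -1.73. Ptprf met the count minimum through Input only. Of the kinase genes related to Src, Yes1 rose (log2 1.135) and Fyn did not pass (log2 0.26).

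Of 23 scaffolds 10 (43.5%) rose and 6 (26.1%) fell, beside 26.1% and 29.4% of all genes tested. Those that rose include Actn4 (1.81), an actin crosslinker, Rap1b (0.92), a small GTPase of endothelial junctions, and Tln1 (0.69), all on the log2 scale. Those that fell are Ctnnal1 (-3.78), Magi2 (-2.83), Arvcf (-2.23), Plekha7 (-1.69), Pdlim1 (-1.30) and Magi1 (-0.88), and of these Magi1 alone met the count minimum in both fractions, the others through Input only. Without both 1227 libraries the calls of Tln1 (0.72), Pdlim1 (-1.15) and Magi1 (-0.87) were lost. Arvcf is a relative of Ctnnd1, and Plekha7 binds p120-catenin. Magi3, a relative of Magi1 and Magi2, rose instead (log2 1.88) and met the count minimum in both fractions. Of 6 nectins and partners 1 (16.7%) rose and 2 (33.3%) fell. Pvr, the 1 that rose, was at 44.1, 41.7 and 42.3 CPM in Positive, against 11.9, 14.6 and 12.4 CPM in Input (log2 1.73 ± 0.16). Pvrl2, the older symbol of the nectin-2 gene, did not pass (log2 0.22). Ssx2ip did not pass either (log2 0.47, edgeR adjusted p = 0.0628), but did with the replicate number as a block (log2 0.48, edgeR adjusted p = 0.0159).

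Of 23 polarity and Hippo genes 11 (47.8%) rose and 5 (21.7%) fell, beside 26.1% and 29.4% of all genes tested. The choice of this list, too, limits what its counts can show. Wwtr1, the gene of the transcriptional coactivator TAZ, averaged 566.5 ± 29.0 CPM in Positive and 97.1 ± 4.17 CPM in Input (SD, n = 3 each; log2 2.54 ± 0.12). Fzd6, a Frizzled receptor of planar polarity, averaged 443 ± 24.2 CPM in Positive and 70.0 ± 2.13 CPM in Input (log2 2.66 ± 0.12). Nf2, merlin, rose less (log2 0.57 ± 0.12), a call that was lost without both 1227 libraries (0.57). Fjx1 fell most, at 10.6, 10.2 and 14.7 CPM in Positive, against 151.6, 145.6 and 184.6 CPM in Input (log2 -3.74 ± 0.20); its Drosophila counterpart four-jointed modifies Fat and Dachsous. Prickle2, Fzd3, Dvl3 and Tead1 also fell, with log2 fold changes from -2.69 to -0.86. Of these 5 genes, Fjx1, Prickle2 and Dvl3 met the count minimum through Input only. Fzd3, Prickle2 and Dvl3 act in polarity, and Tead1 is a transcription factor of the Hippo pathway. Relatives of these genes went the other way: Prickle1 (1.67), Tead2 (1.67) and Tead4 (2.57) rose on the log2 scale. Prickle1 averaged 236.8 CPM in Positive and 73.9 CPM in Input. Tead4 met the count minimum through Positive only. Dvl1 (0.18) and Dvl2 (-0.15) did not pass.

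Of 10 regulators of the protocadherin clusters, which include cohesin subunits, 7 rose and 0 fell. All of them met the count minimum in both fractions, where 30.4% of all genes rose and 19.9% fell. Their largest log2 fold change was 0.99. Smc1a was at 240.8, 320.8 and 239.7 CPM in Positive, against 146.1, 156.4 and 135.6 CPM in Input (log2 0.87 ± 0.15, edgeR adjusted p = 0.00129). Rad21 rose by a small amount (log2 0.31 ± 0.11, edgeR adjusted p = 0.0384), a call that held without Input 1223 and was lost without each of the other libraries in turn (0.30 to 0.34). Stag2 did not pass (log2 -0.01 ± 0.13). Among 6 cadherin-like genes outside the symbol rule, Ret, a receptor kinase with cadherin-like repeats, was at 41.9, 55.4 and 59.1 CPM in Positive, against 7.63, 8.79 and 11.7 CPM in Input (log2 2.45 ± 0.23), and met the count minimum through Positive only. Clstn1, calsyntenin-1, rose by 0.61 on the log2 scale, whereas Clstn3, kept through Input only, fell by 3.44.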

How the data were processed

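The authors deposited 1 table with an estimated count and a log2 normalised value per gene and library; the raw columns are mostly not whole numbers. Per the file headers, it keeps genes with a raw value of at least 50 in all libraries of at least 1 fraction. Per the submitters' processing notes the build was mm10 and DESeq was among the tools; which aligner, counter and strand setting were used is not stated in these sources. The definition of the deposited log2 values is not stated in the file, and they served only as an alternative.

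The deposited estimated counts were rounded and fitted with edgeR 4.0.16 under R 4.3.3. Scaling was by TMM. FilterByExpr, at its minimum of 10 counts, removed 0 genes. Positive was compared with Input by the quasi-likelihood test, with fraction alone in the model. The Benjamini-Hochberg threshold was 0.05 over all 10989 genes. Log2 fold changes are fitted values (prior count 2), and their SE is the one implied by the quasi-F statistic. The biological coefficient of variation was 21.6%. Depth differed 10.95-fold between libraries, so low genes carry the most counting error in the 1223 libraries. Levels per kilobase use exon unions of GENCODE M21 (GRCm38). The code was tested on simulated data.

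Members and lists were chosen with earlier results of these data known. By rule, values per library are given for up to 4 members of each role with the highest mean level, for every called cadherin, catenin, Fat, Dchs and Celsr gene, and for called members against their group's main direction; of each partner list, the 3 most abundant genes and those called against its main direction are named. Further members are named by their fold changes, and beside some partner genes that fell their relatives are named too.

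Deviations from the fraction means correlated across genes at 0.45 (1222), 0.23 (1223) and 0.30 (1227) between the 2 libraries of a number, above every other number (at most 0.02), so the numbers were taken to pair the libraries. Centring on the fraction means lowers the values between numbers when those within a number are high. The low values between numbers are therefore no separate evidence of pairing. A fit with the replicate block, RLE scaling, library size only, DESeq2 1.42.0, no filter, limma 3.58.1 on the deposited log2 values (chosen after seeing the data), and leaving out each library or both libraries of a number were the 15 alternatives.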

Additional observations from a re-analysis of the deposited data

How the results depend on the processing

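Of 47 called members, 39 kept their call and direction in all 15 alternatives, and 12 of 16 uncalled members were called in none. The alternative without a filter repeats the main fit, because the filter removed 0 genes, and so adds no check. Members numbered 13 to 17 higher and 31 to 33 lower over the scaling, filter, tool and replicate block settings, and 12 to 16 higher and 27 to 31 lower when libraries were left out. With the replicate block 17 members were higher and 31 lower. Of all genes 3298 were then higher and 3482 lower, beside 2870 and 3227 in the main fit. The block changed the calls of Pcdhac2, Pcdhb16, Pcdhb22 and Ssx2ip. It changed no other call among members and the partner genes named by rule, and gave Cdh3 a log2 fold change of -0.15. The count of all genes that rose ranged from 1741 (without both 1227 libraries) to 2755 when libraries were left out, beside 2870. Scaling to library size only moved the median of all genes to -0.13, beside 0.03.

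Uncalled genes changed sign in places. Cdh3 was at -0.07 with limma, which was chosen after seeing the data, and ran from -0.92 to 0.92 when libraries were left out. Pcdhb4 was at -0.12 with library size only and -0.01 with DESeq2, and ran from -0.42 to 0.67. Pcdhgb2 was at -0.02 with library size only and ran from -0.02 to 0.27. Stag2 was at 0.06 with limma and ran from -0.08 to 0.06. Leaving out libraries gave -0.54 to 0.09 for Pcdhb18, -0.82 to 0.45 for Pcdhb19, -0.78 to 0.13 for Pcdhga3, -0.08 to 0.38 for Pcdhgb4 and -0.28 to 0.24 for Pcdhga9. The cause was not tested. Dchs1 and Rad21 did not pass with RLE scaling (0.31 and 0.30), library size only (0.17 and 0.16) or limma (0.39 and 0.38), nor Pcdhgb7 with limma (-0.39), whereas Pcdhb16 and Pcdhb22 passed with DESeq2 (0.87 and 0.71) and limma (0.97 and 0.77), Pcdhga5 with library size only (-0.82) and Ssx2ip with limma (0.55). Both 1223 libraries were the shallowest, which limits members at a few CPM; 46 genes of the families are not analysed here.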

Other observations

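Among genes that the table annotates with homophilic cell adhesion, 24 were no members. Of these 6 rose and 16 fell, and of the 22 members with the same term 7 rose and 13 fell, with a median log2 fold change of -1.49 in each set. Over all genes tested 26.1% were higher and 29.4% lower. Of the 10 other genes that met the count minimum in both fractions 5 rose and 3 fell, and of the 13 members 7 rose and 5 fell; the 13 other genes and 9 members kept through Input only gave 13 and 8 of the falls. Esam, an immunoglobulin-family adhesion molecule of endothelial tight junctions, averaged 1102 CPM in Positive and 157.9 CPM in Input (log2 2.81 ± 0.18). Frem2, an extracellular matrix protein of basement membranes, averaged 47.0 CPM in Positive and 18.9 CPM in Input (log2 1.33 ± 0.21). The neural adhesion genes Robo2, Cadm3 and Dscaml1 were lower, at 2.71, 4.48 and 4.24 CPM in Positive, against 25.8, 56.7 and 39.7 CPM in Input, and all 3 met the count minimum through Input only. These genes were chosen after their values were seen, and all 5 passed edgeR's quasi-likelihood test.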
